A study of Homo sapiens with 12 samples.

Results

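The colony-stimulating factors and the interleukin-6 (IL-6) family were followed here through 10 genes in AC16 cells exposed to doxorubicin. They are the ligands CSF1, CSF2 and CSF3, the ligands IL6, IL11 and LIF, the receptor subunits IL6ST, OSMR and LIFR, and the feedback inhibitor SOCS3. They were chosen by symbol, and all 10 were found among the 60607 gene IDs of the count table. All 10 also passed the filter on low counts that left 17320 genes for testing. CSF2 and CSF3 passed it only through libraries of doxorubicin-treated cells, so these 2 genes had to differ from the control, and counts of called members below are read with that in mind.

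AC16 is a human line made by fusing cells of the adult ventricle with transformed fibroblasts, and doxorubicin is an anthracycline cancer drug that damages DNA through topoisomerase II. The series asks how the response to the drug changes over time, in the setting of drug-induced damage and hypertrophy of the heart. Messenger RNA was sequenced in 12 libraries of wild-type AC16 cells. Of these, 3 came from control cells, labelled with DMEM medium as their treatment, and 3 each came from cells cultured with doxorubicin, at 0.1 µM, over 2, 4 or 6 days. The cells of every group were maintained in DMEM/F12 with serum and antibiotics. In the sample titles the exposures are 48, 96 and 112 hours, and every library is marked as day 6, so the design and the titles differ on the longest exposure. If day 6 is the day of harvest, the shorter exposures may have ended before it. Length of exposure and time since the drug then cannot be told apart. Day 2, day 4 and day 6 below name lengths of exposure in separate groups. A single line was used, and separate cultures are not mentioned for the replicates, so the p-values reflect only how far these libraries differ, which may be technical.

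Total counts were 14835743 to 21226441 per library. Of 10 cardiomyocyte markers 1 passed the filter, and their summed level was 0.841 to 1.45 CPM, a count normalised to the size of the library, in all 12 libraries, so the defining markers of the labelled cell type, cardiomyocytes, were close to absent. All 10 fibroblast markers were tested. Control replicate 2 and day 2 replicate 3 stood apart within their groups. Mitochondrial genes took 8.26% of the counts in control replicate 2, against 6.01% and 6.75% in the other controls, and 5.51% in day 2 replicate 3, against 7.62% and 7.74% in the other day 2 libraries. Results that change without these 2 libraries are given with both values. Levels are CPM after TMM scaling (mean ± SD, n = 3), and log2 fold changes (± SE) and Benjamini-Hochberg adjusted p-values come from the quasi-likelihood test of edgeR over all 17320 genes, with a threshold of 0.05. The comparisons of day 2, day 4 and day 6 with the control share the same 3 control libraries. In bulk RNA, fewer cells that express a gene and less of its RNA per cell cannot be told apart.

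Colony-stimulating factors are secreted proteins that direct the growth and activity of myeloid cells. M-CSF, the product of CSF1, acts on macrophages, GM-CSF, the product of CSF2, on granulocytes and macrophages, and G-CSF, the product of CSF3, on neutrophils. The ligands IL-6, IL-11 and LIF each bind a receptor complex that contains gp130, the product of IL6ST. The complex signals through JAK kinases and the transcription factor STAT3, which in turn raises its own inhibitor SOCS3. In the heart, gp130 signalling is known for its part in cardiomyocyte survival and hypertrophy, and stressed or senescent fibroblasts are a known source of IL-6 and GM-CSF.

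The messenger RNAs of many cytokines carry AU-rich elements, runs of the pentamer ATTTA in the 3′ untranslated region that decay factors such as ZFP36 recognise. They are shown because several of the ligands described below hold them. In each gene the window of 30 bases with the most ATTTA copies was found (in capitals, DNA letters, sense strand, GRCh38 with GENCODE 29 transcripts). Only windows of ligands that rose are printed. The ligand gene CSF1, which also rose, and the receptor gene OSMR, which fell, are counted below but not printed. CSF2 (chr5:132076081-132076110, plus strand), CSF3 (chr17:40016983-40017012, plus), IL11 (chr19:55365934-55365963, minus), LIF (chr22:30240522-30240551, minus) and IL6 (chr7:22731712-22731741, plus) gave:
CSF2: ATTTATTTATTTATTTATTTAagttcatat
CSF3: ATTTAtctctATTTAatATTTAtgtctatt
IL11: ATTTATTTATTTAtttcagtactgggggcg
LIF: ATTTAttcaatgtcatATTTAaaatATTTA
IL6: ATTTAttaatATTTAaatatgtgaagctga
CSF2 had 5 copies in its window, a number that 0.214% of 19132 coding genes reached. CSF3, IL11, LIF and the receptor gene OSMR had 3 copies, which 2.97% of coding genes reached. IL6 had 2, as did CSF1, IL6ST, LIFR and SOCS3, and 22.6% of coding genes reached that number. The longest annotated 3′ untranslated region of each gene was searched, and the shares are not matched for its length. It spanned 318 bases in CSF2, 854 in CSF3, 1618 in IL11, 3204 in LIF and 2197 in OSMR, against a median of 1103. A match is a description of the letters and not a measure of decay.

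The 250 bases upstream of the transcription start were available from RefSeq (GRCh38.p14) for 7 of the 10 genes, in 10 windows. CSF1, CSF3 and LIF had no entry. Both strands were searched for an NF-kB motif (GGGANNNNCC), an AP-1 motif (TGANTCA) and a STAT motif (TTCNNNGAA), whose letters were chosen with these windows in view. Matches of different motifs did not overlap in the windows shown. Of 35116 promoter windows of the same length, 22.6% held the NF-kB motif, 6.57% the AP-1 motif and 6.57% the STAT motif. The promoters of CSF2 (chr5:132073539-132073788, plus strand), IL6 (chr7:22726950-22727199, plus) and IL11 (chr19:55370464-55370713, minus) are printed because these 3 ligands rose and held a match, in capitals:
CSF2: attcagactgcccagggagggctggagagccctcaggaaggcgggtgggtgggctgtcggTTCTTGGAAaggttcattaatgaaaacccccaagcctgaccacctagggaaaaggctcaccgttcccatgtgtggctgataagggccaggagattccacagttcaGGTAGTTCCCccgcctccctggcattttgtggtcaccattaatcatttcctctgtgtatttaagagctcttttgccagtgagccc
IL6: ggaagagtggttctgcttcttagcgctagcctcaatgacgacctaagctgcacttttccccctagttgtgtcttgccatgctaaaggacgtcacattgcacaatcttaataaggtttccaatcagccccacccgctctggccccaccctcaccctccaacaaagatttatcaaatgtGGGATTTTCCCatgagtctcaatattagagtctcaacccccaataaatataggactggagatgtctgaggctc
IL11: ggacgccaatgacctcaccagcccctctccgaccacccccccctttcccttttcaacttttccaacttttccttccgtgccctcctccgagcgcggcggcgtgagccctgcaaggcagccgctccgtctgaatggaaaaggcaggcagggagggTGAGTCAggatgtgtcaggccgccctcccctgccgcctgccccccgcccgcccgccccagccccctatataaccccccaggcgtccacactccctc
In CSF2 the STAT match began 190 bases before the start and the NF-kB match, on the other strand, 85 bases before it. In IL6 the capitals mark a pair of overlapping NF-kB matches, 1 on each strand, that began 73 and 72 bases before the start. IL11 held an AP-1 match 96 bases before the start. Single NF-kB matches also lay upstream of IL6ST and OSMR, which did not rise past the threshold in any comparison, and STAT matches lay in 2 of the 3 windows of LIFR. The windows of SOCS3 held 0 matches of any of the motifs.

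All 6 ligands rose after doxorubicin, at each of the 3 exposures, while OSMR, LIFR and SOCS3 were lower after 4 and 6 days and IL6ST was not called in any comparison. At day 2, 6 members were higher than in the control, 2 were lower (OSMR and SOCS3) and 2 did not pass the test (IL6ST and LIFR). Over all tested genes 47.2% were called at day 2, 23.8% higher and 23.4% lower. At day 4 and again at day 6, 6 members were higher, 3 lower and 1 did not pass. Of all genes 36.5% were called at day 4 (18.8% higher, 17.7% lower) and 43.7% at day 6 (22.0% higher, 21.7% lower). CSF2 and CSF3, whose direction against the control the filter fixed, are set aside from the following values. Of the other 8 members 4 were higher at each exposure, and 2 were lower at day 2 and 3 at day 4 and day 6. The libraries of the compared groups did not overlap for 7 of these 8 at day 2, day 4 and day 6, against 52.2%, 44.6% and 50.9% of all genes. Their median log2 fold change was 0.43 at day 2, 0.45 at day 4 and 0.57 at day 6, and that of all genes was -0.01 at each exposure except day 4, where it was -0.003. With library totals as the only scaling, the median of all genes at day 2 was -0.14 and the calls split into 3203 higher and 5386 lower genes, against 4122 and 4058 with TMM, and every direction given here is relative to TMM.

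**Figure D1:**
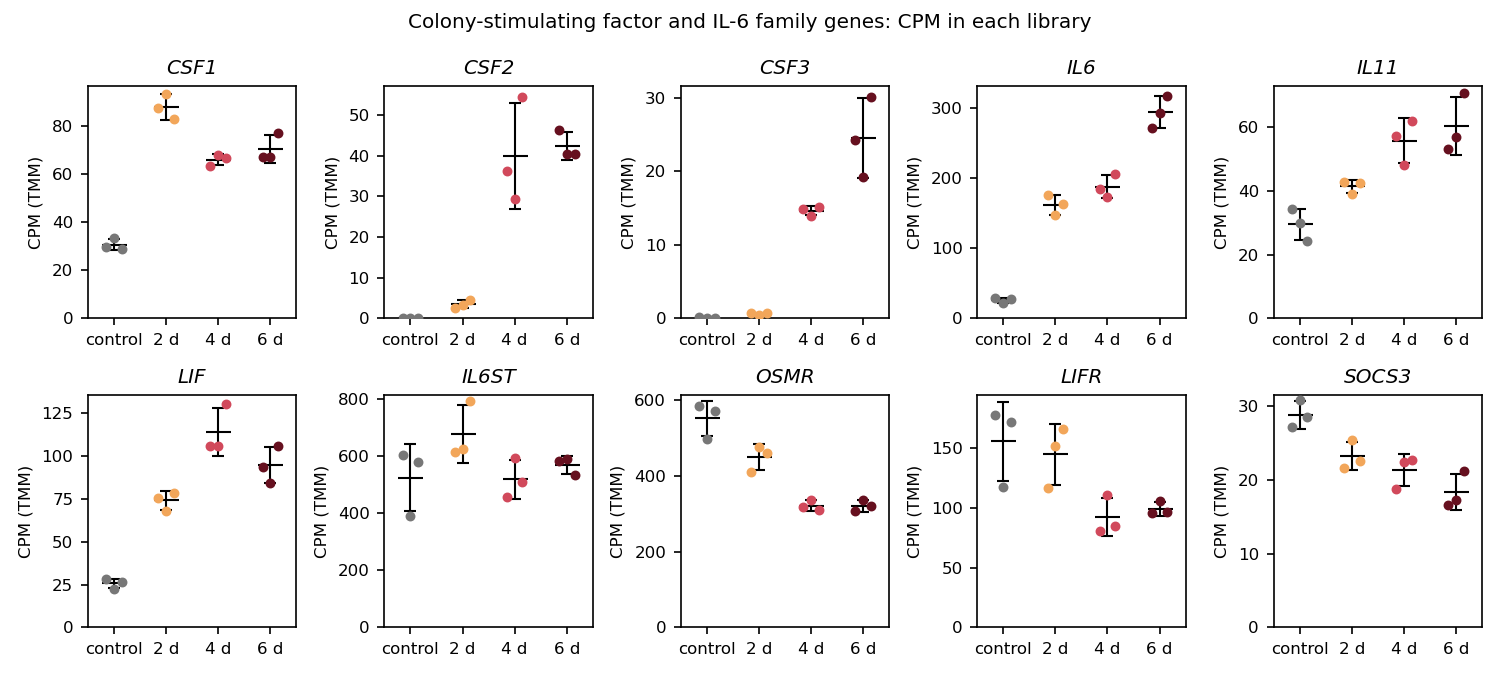
CPM of the 10 genes (vertical axes, each from 0) in every library of the control and of cells given doxorubicin for 2, 4 and 6 days (points; bars are mean ± SD, n = 3). The 3 control libraries lie below all 9 treated libraries for CSF1, CSF2, CSF3, IL6, IL11 and LIF and above all treated libraries for OSMR and SOCS3.

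CSF2, the gene of GM-CSF (ENSG00000164400.6, GRCh38 chromosome 5, 132073790 to 132076170, plus strand), was silent at this depth in the control. It was higher at day 2 and far higher at day 4 and day 6. It had 0 counts in each of the 3 control libraries, which allows up to 0.0625 CPM over the group (a floor of 3 counts, counting error only). It had 53, 48 and 75 counts in the day 2 libraries, 640, 488 and 992 at day 4, and 762, 744 and 874 at day 6. The groups of treated libraries at day 4 and day 6 overlapped each other and lay far above day 2. In CPM, the means were 3.49 ± 0.933 at day 2, 40.0 ± 13.0 at day 4 and 42.5 ± 3.42 at day 6. Against the floor of the control group, CSF2 was at least 55.8-fold higher at day 2, at least 639-fold higher at day 4 and at least 679-fold higher at day 6. The adjusted p-values of the edgeR test were 1.38e-05, 4.5e-09 and 2.57e-09, and belong to its own fold changes, not to these bounds. CSF2 passed the filter only through treated libraries, so these p-values are not separate support for a rise. CSF2 carried the window with the most ATTTA copies of the 10 genes.

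CSF3, the gene of G-CSF (ENSG00000108342.13, chromosome 17, 40015361 to 40017813, plus strand), was near 0 in the control, low at day 2 and far higher at the longer exposures. It had 4, 0 and 0 counts in the control libraries, 14, 7 and 12 at day 2, 263, 233 and 276 at day 4, and 398, 354 and 650 at day 6. The ranges of the 4 groups did not overlap and stood in the order of exposure. The means were 0.0757 ± 0.131 CPM in the control, 0.635 ± 0.135 at day 2, 14.7 ± 0.613 at day 4 and 24.5 ± 5.41 at day 6. The log2 fold changes against the control were 2.85 ± 0.68 at day 2 (adjusted p = 0.00122), 7.34 ± 0.36 at day 4 (adjusted p = 4.49e-14) and 8.09 ± 0.34 at day 6 (adjusted p = 1.31e-15). These sizes rest on the 4 counts of control replicate 1, and without that library the control is at 0 and no fold is given. CSF3 also passed the filter only through treated libraries, so its p-values against the control are not separate support for a rise.

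CSF1, the gene of M-CSF (ENSG00000184371.14, chromosome 1, 109910242 to 109930992, plus strand), was expressed in the control and was highest at the shortest exposure. Its levels by library were 29.6, 33.5 and 29.1 CPM in the control, 87.4, 93.4 and 82.9 at day 2, 63.4, 67.9 and 66.8 at day 4, and 67.1, 67.4 and 77.0 at day 6. Every treated library was above every control library, and every day 2 library above those of day 4 and day 6. The log2 fold changes against the control were 1.52 ± 0.09 at day 2 (adjusted p = 6.16e-13), 1.10 ± 0.09 at day 4 (adjusted p = 4.01e-10) and 1.20 ± 0.09 at day 6 (adjusted p = 5.57e-11).

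IL6 (ENSG00000136244.12, chromosome 7, 22725884 to 22732002, plus strand), which encodes the founding ligand of its family, was highest at the longest exposure. It had 28.7, 21.9 and 27.3 CPM in the control, 176, 147 and 162 at day 2, 184, 173 and 206 at day 4, and 270, 293 and 316 at day 6. Day 2 and day 4 overlapped, and every day 6 library was above both. The log2 fold changes against the control were 2.64 ± 0.10 at day 2 (adjusted p = 4.18e-16), 2.85 ± 0.10 at day 4 (adjusted p = 1.69e-16) and 3.49 ± 0.11 at day 6 (adjusted p = 3.65e-18), the last an 11.3-fold difference. IL6 shares 428 exon bases with IL6-AS1 and 46 with STEAP1B, both on the other strand, and whether reads were counted by strand is not given in the sources used here. IL6-AS1 held 183 counts over the 12 libraries, and STEAP1B averaged 18.4 ± 0.745 CPM at day 6 and 8.96 ± 1.01 CPM in the control (log2 fold change 1.04 ± 0.13, adjusted p = 4e-07), both far below IL6 in the treated libraries.

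LIF (ENSG00000128342.5, chromosome 22, 30240447 to 30246851, minus strand) encodes leukemia inhibitory factor, which binds LIFR together with gp130. LIF had 28.0, 22.5 and 26.6 CPM in the control, 75.5, 68.1 and 78.7 at day 2, 106.0, 105.9 and 130.3 at day 4, and 94.0, 84.6 and 105.8 at day 6. The highest group was day 4, with a mean of 114 ± 14.1 CPM. The log2 fold changes against the control were 1.53 ± 0.11 at day 2 (adjusted p = 1.96e-11), 2.15 ± 0.11 at day 4 (adjusted p = 5.4e-14) and 1.88 ± 0.11 at day 6 (adjusted p = 4.06e-13). LIF shares 175 exon bases with the antisense gene LIF-AS2, which also rose, to 3.17 ± 0.491 CPM at day 6, against 0.380 ± 0.183 CPM in the control (log2 fold change 3.06 ± 0.34, adjusted p = 8.53e-08). Without strand, reads of the overlap cannot be assigned to 1 of the 2 genes. LIF-AS1, at the other end of the gene, shares 92 exon bases and held 152 counts over the 12 libraries.

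IL11 (ENSG00000095752.7, chromosome 19, 55364389 to 55370463, minus strand), a gp130 ligand known in fibroblasts for its part in fibrosis, had the smallest fold change of the 6 ligands at each exposure. IL11 had 34.2, 29.9 and 24.4 CPM in the control, 42.7, 39.0 and 42.6 at day 2, 57.3, 48.1 and 62.1 at day 4, and 53.3, 57.1 and 70.7 at day 6. All treated libraries were above the controls, and day 4 and day 6 overlapped. The log2 fold changes against the control were 0.49 ± 0.12 at day 2 (adjusted p = 0.00218), 0.92 ± 0.12 at day 4 (adjusted p = 2.06e-06) and 1.03 ± 0.12 at day 6 (adjusted p = 2.48e-07).

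**Figure D2:**
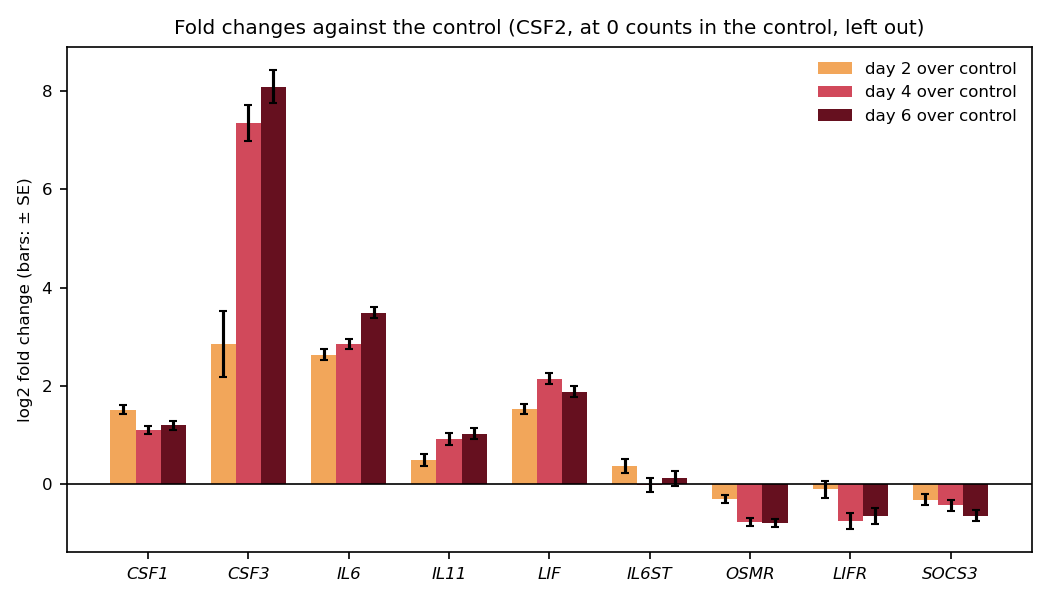
Log2 fold changes against the control (vertical axis; bars ± SE) of 9 of the genes at day 2, day 4 and day 6. The bars of CSF3 are highest, at 2.85, 7.34 and 8.09, those of the other ligands shown lie between 0.49 and 3.49, and those of OSMR and SOCS3 lie below 0 at all 3 exposures. CSF2, with 0 control counts, is left out.

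The receptor genes moved the other way or were not called. OSMR, the oncostatin M receptor subunit (ENSG00000145623.13, chromosome 5, 38845858 to 38945596, plus strand), had 586, 498 and 573 CPM in the control libraries, 411, 476 and 461 at day 2, 318, 337 and 311 at day 4, and 307, 337 and 320 at day 6. The control libraries were the highest, day 2 lay between, and day 4 and day 6 overlapped. OSMR fell by 0.30 ± 0.08 on the log2 scale at day 2 (adjusted p = 0.00358), by 0.78 ± 0.08 at day 4 (adjusted p = 2.97e-08) and by 0.78 ± 0.08 at day 6 (adjusted p = 1.92e-08). It shares 229 exon bases with RICTOR on the other strand, and RICTOR was not called at any exposure (adjusted p = 0.893, 0.66 and 0.671 at day 2, day 4 and day 6).

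LIFR, the receptor subunit for LIF (ENSG00000113594.10, chromosome 5, 38474963 to 38608354, minus strand), was lower at the longer exposures. Its levels were 178, 118 and 172 CPM in the control, 117, 152 and 166 at day 2, 81.0, 111 and 85.4 at day 4, and 95.8, 106 and 96.4 at day 6. Day 2 overlapped the control, and day 4 and day 6 lay below every control library. LIFR fell by 0.76 ± 0.17 on the log2 scale at day 4 (adjusted p = 0.00275) and by 0.65 ± 0.17 at day 6 (adjusted p = 0.00582). At day 2 its log2 fold change was -0.11 ± 0.16 (adjusted p = 0.622), and -0.39 without the 2 libraries that stood apart (adjusted p = 0.0197). The antisense gene LIFR-AS1, with 629 shared exon bases, held 245 counts over the 12 libraries.

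IL6ST, the gene of gp130 (ENSG00000134352.20, chromosome 5, 55935095 to 55994993, minus strand), was not called in any of the 6 comparisons. By library it had 605, 389 and 580 CPM in the control, 614, 625 and 794 at day 2, 456, 593 and 509 at day 4, and 581, 591 and 533 at day 6. The lowest of the 12 was control replicate 2 and the highest day 2 replicate 3, the libraries named above for their mitochondrial share. The log2 fold change at day 2 was 0.37 ± 0.15 (95% interval 0.05 to 0.69, adjusted p = 0.0542), at day 4 -0.01 ± 0.15 (-0.33 to 0.30, adjusted p = 0.955) and at day 6 0.12 ± 0.15 (-0.20 to 0.43, adjusted p = 0.563). Without the 2 libraries that stood apart, the day 2 value was 0.06 (adjusted p = 0.601) and the day 4 value -0.19 (adjusted p = 0.0693). With all libraries the day 2 value lay at the threshold: DESeq2 gave an adjusted p of 0.0176, and edgeR gave 0.0256 without control replicate 1, 0.048 without control replicate 3 and 0.0372 without day 2 replicate 1. Genes over 8000 exon bases, IL6ST and LIFR among them, took 31.4% of the counts in control replicate 2, against 34.7% and 34.2% in the other controls, and 35.6% in day 2 replicate 3, against 33.5% and 34.8% in the other day 2 libraries. The part of these shares in the levels of IL6ST and LIFR was not tested.

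**Figure D3:**
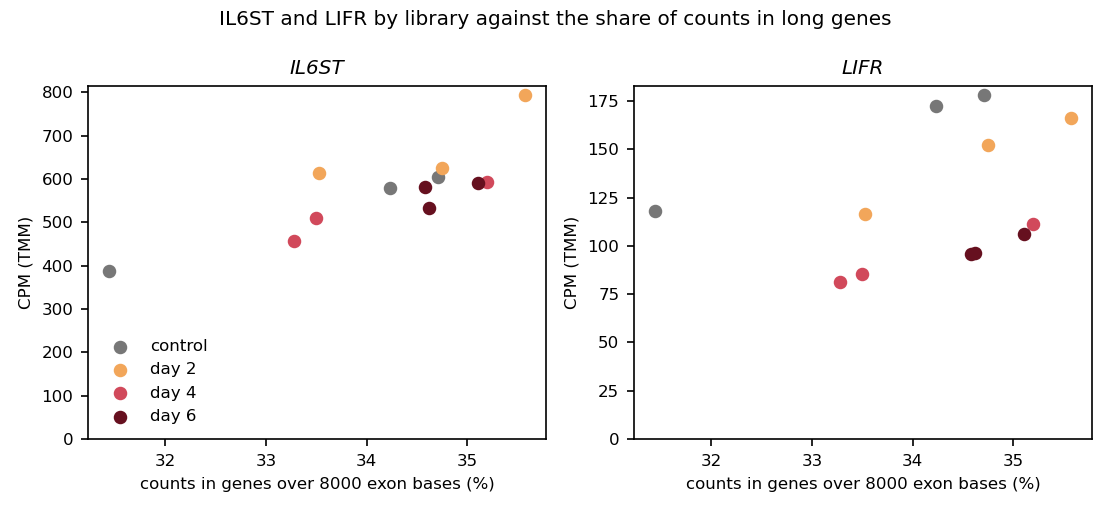
CPM of IL6ST and LIFR (vertical axes) in each of the 12 libraries against the share of counts in genes over 8000 exon bases (horizontal axis, %). Control replicate 2, at 31.4%, is the lowest control library for both genes, and day 2 replicate 3, at 35.6%, is the highest day 2 library for both.

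SOCS3 (ENSG00000184557.4, chromosome 17, 78356778 to 78360077, minus strand), whose protein binds gp130 and blocks JAK activity, was lower than in the control at every exposure, at which the ligands were higher. Its libraries were at 27.1, 30.8 and 28.5 CPM in the control, 21.7, 25.4 and 22.6 at day 2, 18.8, 22.4 and 22.8 at day 4, and 16.6, 17.3 and 21.2 at day 6. All treated libraries were below the controls, and neighbouring exposures overlapped. SOCS3 fell by 0.31 ± 0.11 on the log2 scale at day 2 (adjusted p = 0.0237), by 0.43 ± 0.11 at day 4 (adjusted p = 0.00356) and by 0.64 ± 0.11 at day 6 (adjusted p = 5.15e-05). The day 2 call did not hold without control replicate 2 (-0.27, adjusted p = 0.061), day 2 replicate 1 (-0.25, adjusted p = 0.122) or day 2 replicate 3 (-0.29, adjusted p = 0.0681), or without both libraries that stood apart (-0.25, adjusted p = 0.126).

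The members differed in how their levels changed between lengths of exposure. Between day 4 and day 2, 4 members were higher at day 4, 3 were lower and 3 did not pass, against 34.8% of all genes called (16.3% higher, 18.5% lower). The libraries of day 4 and day 2 did not overlap for 8 members, and for 45.9% of all genes. CSF2 was 11.5-fold higher at day 4 than at day 2 (log2 3.53 ± 0.25, adjusted p = 1.8e-07), and CSF3 22.5-fold higher (4.49 ± 0.25, adjusted p = 1.33e-12). LIF was higher by 0.62 ± 0.10 (adjusted p = 2.76e-05) and IL11 by 0.43 ± 0.12 (adjusted p = 0.00659). The lower ones were CSF1 (-0.41 ± 0.08, adjusted p = 0.000446), OSMR (-0.48 ± 0.08, adjusted p = 4.03e-05) and LIFR (-0.65 ± 0.17, adjusted p = 0.0079). IL6 differed by 0.21 ± 0.09 (adjusted p = 0.0839), and by 0.30 when scaled by library totals alone (adjusted p = 0.0156). IL6ST differed by -0.38 ± 0.15 (adjusted p = 0.0591), and by -0.25 without the libraries that stood apart (adjusted p = 0.0154). SOCS3 differed by -0.12 ± 0.11 (adjusted p = 0.447).

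Between day 6 and day 4, 2 members were higher at day 6 and 8 did not pass, against 6.78% of all genes called (3.05% higher, 3.73% lower). The libraries did not overlap for 3 members, CSF3, IL6 and LIF, and for 27.6% of all genes. IL6 was 1.56-fold higher at day 6 (log2 0.64 ± 0.09, adjusted p = 0.00011). CSF3 was 1.68-fold higher (0.75 ± 0.16, adjusted p = 0.00439), a call that ended without day 6 replicate 3, its highest library (0.57, adjusted p = 0.0523). For CSF2 the difference between day 6 and day 4 was 0.08 ± 0.19 with a 95% interval of -0.33 to 0.50, and for LIF it was -0.27 ± 0.10 (adjusted p = 0.11, and 0.034 without the 2 libraries that stood apart). Between day 6 and day 2, 5 members were higher and 4 lower, against 42.8% of all genes called (19.8% higher, 23.0% lower), and the libraries did not overlap for all 10, against 52.8% of all genes. The higher ones were CSF2 (3.61 ± 0.24), CSF3 (5.24 ± 0.24), IL6 (0.86 ± 0.09), IL11 (0.54 ± 0.12) and LIF (0.35 ± 0.10), with adjusted p-values from 3.07e-14 to 0.00605. The lower ones were CSF1 (-0.32 ± 0.08, adjusted p = 0.00373), OSMR (-0.49 ± 0.08, adjusted p = 2.85e-05), LIFR (-0.54 ± 0.17, adjusted p = 0.017) and SOCS3 (-0.33 ± 0.11, adjusted p = 0.0215). The calls of CSF1, LIFR and SOCS3 ended with scaling by library totals alone (-0.16, -0.38 and -0.17, adjusted p = 0.13, 0.0675 and 0.226), which moved the median of all genes in this comparison to 0.16. That scaling gave 5265 genes higher and 2538 lower between day 6 and day 2, against 3437 and 3977 with TMM, and 3842 and 2443 between day 4 and day 2, against 2828 and 3203 with TMM. Between day 6 and day 4 it gave 1006 and 350, against 528 and 646 with TMM. The call of LIF ended without day 6 replicate 3 (0.27, adjusted p = 0.0559). The call of LIFR ended without day 2 replicate 2 (0.0501), day 2 replicate 3 (0.0518), day 6 replicate 1 (0.0514) or day 6 replicate 3 (0.0642, all adjusted p), with log2 fold changes between -0.52 and -0.44. That of SOCS3 ended without day 2 replicate 2 (0.099), day 6 replicate 1 (0.109) or day 6 replicate 2 (0.0858, all adjusted p), with log2 fold changes between -0.29 and -0.26.

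Per kilobase of exon, the order of the 10 genes changed with exposure. Exon length joins all annotated exons of a gene and is not that of the transcript expressed. The order between genes depends on that choice. In the control the receptors led, with OSMR at 77.0 ± 6.60 and IL6ST at 56.4 ± 12.7 CPM per kb, and LIFR, IL6, IL11 and SOCS3 followed between 10.5 and 13.2 CPM per kb, each overlapping its neighbour. LIF (6.47) and CSF1 (5.67) overlapped each other below them. At day 2 IL6 (78.2 ± 6.91), IL6ST (72.9 ± 10.9) and OSMR (62.7 ± 4.73) stood at the top, IL6ST overlapping both others. At day 6 IL6 led alone at 142 ± 11.0 CPM per kb, followed by IL6ST (61.2 ± 3.31) and CSF2 (54.0 ± 4.34), which overlapped each other, and by OSMR (44.8 ± 2.10). CSF3 reached 11.1 ± 2.44 CPM per kb at day 6 and overlapped CSF1 (13.0 ± 1.04) and LIFR (8.38 ± 0.486). SOCS3 was the lowest of the 10 at day 6, at 6.73 ± 0.902 CPM per kb.

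**Figure D4:**
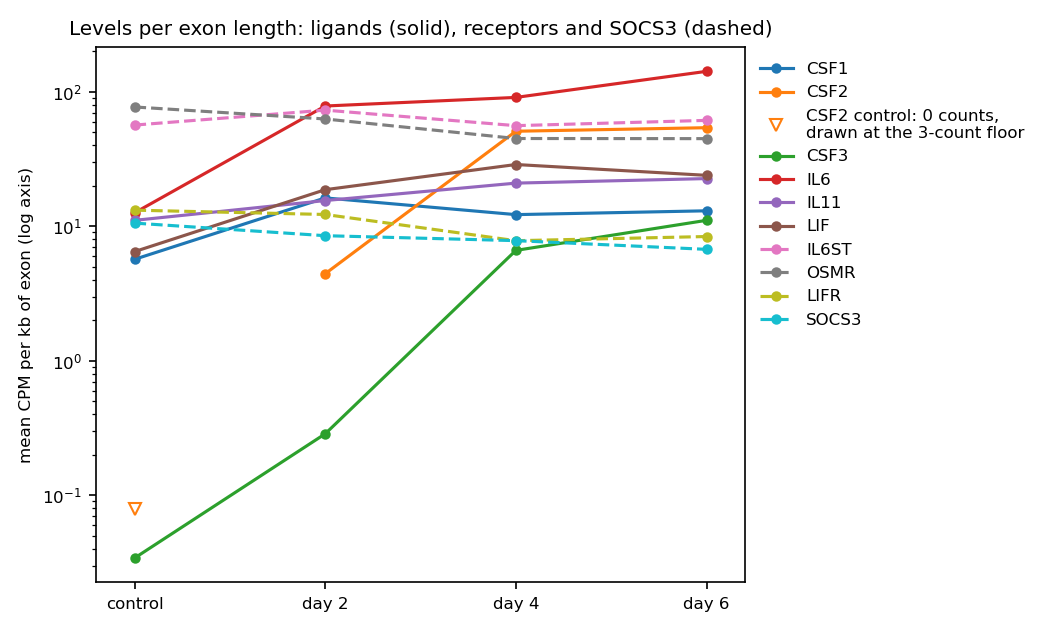
Mean CPM per kilobase of exon (log axis) of the 10 genes in the control and at day 2, day 4 and day 6. The line of IL6 passes those of IL6ST and OSMR at day 2, and CSF2, drawn at its floor in the control, lies level with IL6ST at day 4 and day 6 (50.8 and 54.0 CPM per kb).

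The subunits that bind IL-6 and IL-11 and the receptors of the colony-stimulating factors are kept apart here from the shared IL6ST. IL6R, the subunit that binds IL-6, had 10.6, 10.3 and 9.38 CPM in the control libraries, 4.64, 4.93 and 4.74 at day 2, 2.60, 2.34 and 3.35 at day 4, and 1.89, 2.07 and 2.41 at day 6. The 4 groups ran downward, and day 4 and day 6 overlapped. IL6R fell at day 2, day 4 and day 6, with log2 fold changes of -1.08 ± 0.16, -1.86 ± 0.17 and -2.24 ± 0.18. IL11RA, which binds IL-11, averaged 6.81 ± 0.446 CPM at day 6 and 7.47 ± 1.67 CPM in the control and was not called (adjusted p = 0.418, 0.551 and 0.552 at the 3 exposures). CSF1R, the M-CSF receptor, averaged 1.75 ± 0.385 CPM at day 6 and 1.00 ± 0.327 CPM in the control (adjusted p = 0.0588). CSF2RB and CSF3R had too few counts to be tested. Summed over the 3 libraries of a group, CSF2RB had 4 counts in the control, 33 at day 2, 14 at day 4 and 9 at day 6. CSF3R had 13 counts in the control, 10 at day 2, 4 at day 4 and 12 at day 6. CSF2RA is listed at 0 in every library, as are IL3RA and SLC25A6, also of the pseudoautosomal region, while CD99 of that region held 88 counts over the 12 libraries. The 0 of CSF2RA is not read as a level.

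The counts called in this and the later gene lists are read beside the shares of all genes called. These were 47.2% at day 2, 36.5% at day 4 and 43.7% at day 6 against the control. Of the other receptors and shedding enzymes, 7 of 12 were tested. At day 2, 1 was higher and 2 lower, and at day 4 and at day 6, 0 were higher and 4 lower, with median log2 fold changes of -0.05, -0.31 and -0.52 against -0.01, -0.003 and -0.01 for all genes. Beside IL6R, the falls at day 6 were in IL27RA, a subunit of the IL-27 receptor (-1.09 ± 0.17), IL31RA, a gp130-like receptor (-0.55 ± 0.15), and ADAM17, which sheds membrane receptors such as IL6R (-0.52 ± 0.09). Of 11 other ligands 6 were tested. IL34 is set aside, since it reached the filter's cutoff of 0.574 CPM in day 2 libraries alone. Of the other 5, 2 were higher and 1 lower at day 2, 2 and 1 at day 4, and 2 and 2 at day 6 (medians 0.03, -0.12 and -0.33). EBI3, a subunit of IL-27 and IL-35, averaged 8.01 ± 0.479 CPM at day 2 and 0.569 ± 0.105 CPM in the control (log2 fold change 3.81 ± 0.24), and was also higher at day 6 (2.92 ± 0.26). CTF1, the gene of cardiotrophin 1, rose by 1.15 ± 0.26, 1.33 ± 0.25 and 1.10 ± 0.26 at the 3 exposures. IL34, another ligand of the M-CSF receptor, had 10 counts in the control, 80 at day 2, 4 at day 4 and 8 at day 6. The filter fixed the direction of its difference at day 2 (2.87 ± 0.54), so its call there is not separate support. CNTF, the ciliary neurotrophic factor gene, fell by 1.04 ± 0.25 at day 4 and by 1.01 ± 0.24 at day 6.

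STAT3, the main transcription factor downstream of gp130, had a peak at the shortest exposure. Its libraries were at 222, 211 and 219 CPM in the control, 401, 434 and 455 at day 2, 233, 247 and 236 at day 4, and 226, 239 and 224 at day 6. It rose by 0.99 ± 0.07 at day 2 and was not called at day 4 (0.14 ± 0.07, adjusted p = 0.152) or day 6 (0.08 ± 0.07, adjusted p = 0.39). All 7 JAK and STAT genes listed were tested, with 1 higher and 1 lower at day 2, 0 and 1 at day 4, and 0 and 2 at day 6 (medians -0.08, -0.05 and -0.21). STAT5B, used by the GM-CSF receptor, fell at the 3 exposures (-0.21 ± 0.08, -0.55 ± 0.08 and -0.45 ± 0.08). JAK3 fell at day 6 (-0.59 ± 0.21, adjusted p = 0.026). JAK1 averaged 321 ± 18.8 CPM at day 6 and 359 ± 28.0 CPM in the control, and JAK2 averaged 37.9 ± 4.12 CPM at day 6 and 43.7 ± 6.84 CPM in the control, and neither was called at any exposure.

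Among the 7 SOCS and phosphatase genes other than SOCS3, all were tested, with 2 higher and 1 lower at day 2, 1 and 3 at day 4, and 1 and 3 at day 6 (medians 0.06, -0.03 and -0.17). SOCS1, an inhibitor of JAK kinases, was low but higher in every treated library than in every control library. It averaged 1.73 ± 0.135 CPM at day 2 and 0.455 ± 0.170 CPM in the control (1.91 ± 0.36). SOCS2 differed in direction between exposures, higher at day 2 (0.47 ± 0.12) and lower at day 4 (-0.64 ± 0.13) and day 6 (-0.96 ± 0.13). PTPN11, the phosphatase SHP2 that docks on gp130, fell at the 3 exposures (-0.31 ± 0.09, -0.27 ± 0.09 and -0.34 ± 0.09), and PTPN6, the phosphatase SHP1, with 44 counts in the control, fell at day 4 (-1.67 ± 0.49) and day 6 (-1.15 ± 0.46). PTPN6 reached the filter's cutoff in the 3 control libraries, in 0 at day 2 and day 4 and in 1 at day 6. The filter thus fixed the direction of its differences at day 2 (not called, adjusted p = 0.0804) and at day 4. Without PTPN6, 2 genes of the list were lower at day 4.

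Known STAT3 targets were mixed. Of 22 listed, 14 were tested. SAA1 and SAA2, near-identical genes of serum amyloid A whose reads may be split between them, passed the filter only through treated libraries and were called higher at each exposure, so they are set aside. Of the other 12, 5 were higher and 2 lower at day 2, 4 and 4 at day 4, and 4 and 4 at day 6 (medians 0.06, 0.01 and -0.04). CCND1, the gene of cyclin D1, rose by 1.65 ± 0.07, 2.08 ± 0.07 and 2.05 ± 0.07, and BCL2L1, which encodes the survival protein BCL-XL, by 1.17 ± 0.09, 0.75 ± 0.09 and 0.75 ± 0.09. MYC fell (-0.41 ± 0.10, -1.40 ± 0.11 and -1.41 ± 0.11), and so did the kinase gene PIM1 (-0.25 ± 0.08, -0.88 ± 0.08 and -1.08 ± 0.08). These genes have other regulators as well, so the counts describe the list and not the activity of STAT3. The members of the list that moved did so in both directions.

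Regulators of cytokine mRNA stability were all 10 tested, with 3 higher and 3 lower at day 2, 2 and 3 at day 4, and 3 and 4 at day 6 (medians 0.20, -0.08 and -0.17). ZFP36, which encodes the decay factor tristetraprolin that binds AU-rich elements, had 14.2, 19.0 and 16.2 CPM in the control libraries, 10.4, 10.5 and 7.75 at day 2, 7.24, 8.40 and 8.73 at day 4, and 6.40, 7.47 and 8.43 at day 6. All treated libraries lay below the controls, and its log2 fold changes were -0.79 ± 0.15, -1.02 ± 0.15 and -1.14 ± 0.15. Its relative ZFP36L2 rose at day 2 (1.68 ± 0.09) and was higher by 0.34 ± 0.09 at day 4. ZC3H12A, the gene of the RNase Regnase-1 that cleaves IL6 mRNA, rose by 0.37 ± 0.12, 1.15 ± 0.12 and 0.94 ± 0.12, and HNRNPD, the AU-rich element binding protein AUF1, fell (-0.35 ± 0.08, -0.44 ± 0.08 and -0.65 ± 0.08).

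**Figure D5:**
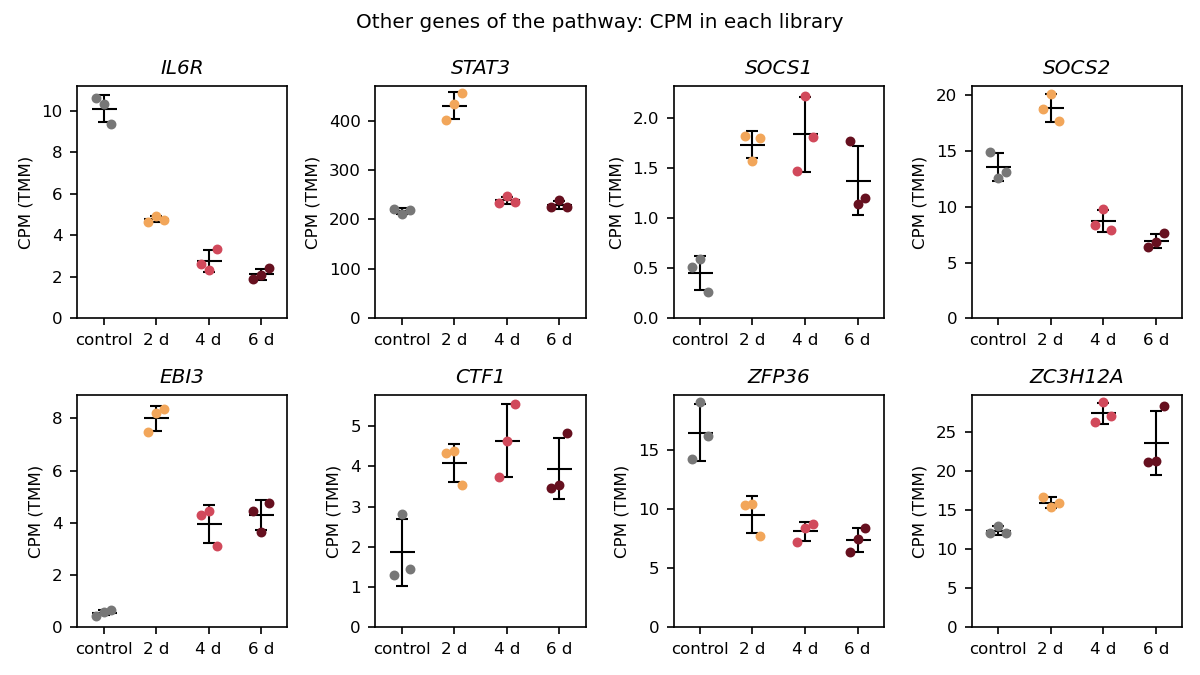
CPM in each library (points; bars are mean ± SD, n = 3) of 8 other genes of the pathway in the control and at day 2, day 4 and day 6. IL6R and ZFP36 are highest in the control, STAT3 and EBI3 peak at day 2, and ZC3H12A is highest at day 4.

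Markers of other cell types were summed beside these results. The 10 macrophage and monocyte markers, of which 4 were tested, summed to 5.75 to 8.17 CPM in the control, 8.41 to 9.58 at day 2, 11.7 to 15.6 at day 4 and 13.7 to 15.7 at day 6. Most of the rise at day 4 and day 6 was CD68, a lysosomal protein gene, at 7.72 ± 1.28 CPM at day 6 and 2.51 ± 0.975 CPM in the control (1.60 ± 0.23, adjusted p = 3.73e-06). The monocyte marker CD14 went the other way, at 0.476 ± 0.267 CPM at day 4 and 1.43 ± 0.412 CPM in the control (-1.57 ± 0.46, adjusted p = 0.00871), with 0.275 ± 0.129 CPM at day 6. PTPRC and CSF1R were not called at any exposure. The defining markers TYROBP and C1QA were at 0 in every library. Lymphocyte markers summed to at most 0.853 CPM in any library, and endothelial markers to between 19.9 and 27.2 CPM. The 10 fibroblast markers summed to 7816 to 8527 CPM in the control, 11781 to 12109 at day 2, 10132 to 10657 at day 4 and 8702 to 9149 at day 6. COL1A1, COL1A2 and VIM made up most of these sums, and the members moved in both directions, with 7 higher and 1 lower at day 2, 3 and 5 at day 4, and 2 and 6 at day 6 (medians 0.34, -0.26 and -0.39). At day 6 LUM (-1.86 ± 0.09), PDGFRB (-1.29 ± 0.09), DCN (-0.97 ± 0.09), COL3A1 (-0.82 ± 0.08), PDGFRA (-0.51 ± 0.10) and COL1A1 (-0.28 ± 0.08) were lower, and VIM (0.92 ± 0.08) and FAP (0.60 ± 0.08) higher. The part of the macrophage and fibroblast markers in the ligands' rise was not tested.

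The genes closest to each member in pattern were ranked over the 12 libraries by the root mean square difference of log2 CPM values, each centred on its own mean. The nearest to CSF2 were CXCL1 (1.00), C3 (1.01) and CSF3 (1.11), and to CSF3 they were CXCL8 (0.84), MIR3142HG (0.96) and CXCL1 (1.06). These differences are of the order of 1 log2 unit. They are not scaled to how far a gene moved, and CSF2 and CSF3 moved further than the other members. Their size therefore cannot be compared with the values of the other members, nor show alone how closely these genes followed CSF2 and CSF3. The mean CPM of CXCL1, C3, CXCL8 and MIR3142HG was, like that of CSF2 and CSF3, higher than in the control at each exposure. CXCL1, a neutrophil chemokine, averaged 0.540 CPM in the control, 8.87 at day 2, 50.1 at day 4 and 45.3 at day 6. The nearest to IL6 were SUGCT (0.25), PALMD (0.27) and G0S2 (0.29), to LIF CCND1 (0.15), CD70 (0.17) and RGS4 (0.17), to IL11 PECAM1 (0.12), ARSA (0.15) and ITGB5 (0.15), and to CSF1 CES2 (0.09), ARID3A (0.09) and YBX3 (0.10). IL6ST had ARFGEF2 nearest (0.06), OSMR had SLC7A1 (0.08), LIFR had MED13L (0.09) and SOCS3 had ATXN2L (0.07).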

How the data were processed

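RNA of AC16 cells was sequenced after a NEBNext Ultra RNA library preparation, per the labels' protocols. The authors deposited 1 table of raw counts, which carry no normalization. The submitters' processing notes name fastp 0.23.2, Trimmomatic 0.38, STAR 2.7.8, HTSeq 0.13.5 and GRCh38.p13, with no roles or order.

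Counts were tested with edgeR 4.0.16 (R 4.3.3) after filterByExpr by group (minimum count 10, minimum total 15), TMM scaling and a robust quasi-likelihood fit of all 12 libraries with a mean per group. The 6 comparisons were each exposure with the control and the exposures with each other. The SE is the absolute log2 fold change over the square root of F. A group at 0 counts was set to a floor of 3 counts over its 3 libraries. Coordinates, exon lengths and overlaps come from GENCODE 29, matched by gene ID without version. The fit was also run on simulated data, and the outcome of that run is not given here.

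The members and gene lists were chosen with earlier results of these data known. All members are named, and of each list up to 4 genes with the smallest p against the control, plus the receptors of the ligands, JAK1, JAK2 and STAT3. A gene of the JAK and STAT list is not reported here and is left out of its counts. Alternatives were other scalings, filters, fits and DESeq2 1.42.0, leaving out each library, and, added after seeing the data, a fit without 2 libraries. No pair of libraries of a group had counts close enough to be copies (chi-square over degrees of freedom 4.12 or more).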

Additional observations from a re-analysis of the deposited data

Results flagged for a closer look

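Differences between lengths of exposure were tested as contrasts of 1 fit, and 18 of the 30 tested for the 10 genes passed the adjusted threshold of 0.05 (edgeR quasi-likelihood test). Of all genes 34.8% were called between day 4 and day 2, 6.78% between day 6 and day 4 and 42.8% between day 6 and day 2. The contrasts share their groups, so the tests of a gene depend on each other. All are log2 differences, longer over shorter exposure, and the longer and shorter groups did not overlap for any gene named here. Over all genes the groups did not overlap for 45.9%, 27.6% and 52.8% in the same order of comparisons.

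Between day 4 and day 2, CSF2 (3.53) and CSF3 (4.49) were higher at day 4 by far more than LIF (0.62) and IL11 (0.43), and CSF1 (-0.41), OSMR (-0.48) and LIFR (-0.65) were lower at day 4. Between day 6 and day 4, CSF3 (0.75) and IL6 (0.64) were higher at day 6. Between day 6 and day 2, CSF2 (3.61), CSF3 (5.24), IL6 (0.86), IL11 (0.54) and LIF (0.35) were higher at day 6, and CSF1 (-0.32), OSMR (-0.49), LIFR (-0.54) and SOCS3 (-0.33) were lower. CSF1 was the ligand whose level at day 4 and at day 6 was below that at day 2.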

How the results depend on the processing

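Of 839 recomputed log2 fold changes of the 10 genes, 805 kept their direction or their uncalled state and their side of the threshold, 16 lost the call, 18 gained one and 0 called values changed sign. The changes of call fell on 12 of the 60 fold changes, and the report gives those of named libraries. Beyond these, the IL6ST difference between day 2 and the control was also called with no low-count filter (adjusted p = 0.000178) and in a fit of the 2 groups alone (0.0495), and its differences between day 4 and day 2 and between day 6 and day 2 were called with no filter (0.000147 and 0.0229) and in fits of 2 groups alone (0.00555 and 0.0167). That between day 4 and day 2 was also called by DESeq2 (0.0186) and without day 2 replicate 1 (0.0444) or day 4 replicate 2 (0.027). IL6 between day 4 and day 2 was called in the fit of 2 groups (0.0425). Uncalled values changed sign in 17 cases, on 6 differences: LIFR at day 2, IL6ST at day 4 and day 6, and OSMR, CSF2 and IL11 between day 6 and day 4. CSF3 at day 2 was not tested in the fit of 2 groups alone, whose filter it did not pass. With scaling by library totals alone 3 of 40 group levels moved by over 1 SD, and with DESeq2-type size factors 0 of 40.

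Over all genes, 1174 were called between day 6 and day 4, 1837 in the fit of the 2 groups alone and 2027 without the 2 libraries that stood apart, a fit chosen after seeing the data. Leaving out 1 library gave 572 to 871 genes, with 572 without day 4 replicate 1, 685 without day 4 replicate 3, 611 without day 6 replicate 1 and 580 without day 6 replicate 2. It gave 1 to 2 members, with 1 (IL6) without day 6 replicate 3. The causes were not tested.

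The replicate numbers were not used as pairs in the main fit. Over 18 pairs of same-numbered libraries the correlations of deviations from the group means were -0.17 to 0.10 and 0 were over 0.1. These correlations cannot show whether same-numbered libraries shared a culture or batch. With the number as a replicate block 7950, 6035 and 7296 genes were called at day 2, day 4 and day 6 against the control, 5680 between day 4 and day 2, 962 between day 6 and day 4 and 7151 between day 6 and day 2, and the members called were 8, 9, 9, 7, 2 and 9, the numbers without the block. Counts near 0 limit CSF2 and CSF3 in the control and the receptors CSF2RB and CSF3R, and intervals and floors cover counting error only.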
